A study of Mus musculus with 12 samples.

Results

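The genes described here are 35 targets and regulators of the SREBP transcription factors, followed in mouse macrophages with and without the kinase Alpk1. They were chosen by symbol from the rows of the deposited count table, with no measured value in the rule. The sterol arm holds 24 of them, and the fatty acid arm holds 11. All 35 were found, and 34 passed the filter on low counts among 12261 genes tested. The gene that did not pass was Scd1.

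The cells were bone-marrow-derived macrophages (BMDMs), grown for 7 days in L929-conditioned medium from marrow of C57BL/6N mice. Wild-type (WT) cells and cells from Alpk1 knockout (KO) mice each received PBS or 100 µM ADP-Hep, a bacterial sugar nucleotide that ALPK1 senses, for 4 h. The 4 groups held 3 libraries each. All groups shared the strain and the medium. The marrow itself came from knockout mice, so KO cells differentiated without Alpk1.

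SREBPs are membrane-bound transcription factors that are held in the endoplasmic reticulum by the escort protein SCAP and the retention proteins INSIG1 and INSIG2 when sterols are plentiful. When sterols fall, the complex moves to the Golgi, where proteases release the active factor. SREBP-2, encoded by Srebf2, acts mainly on genes of cholesterol synthesis, and SREBP-1c, encoded by Srebf1, mainly on genes of fatty acid synthesis. Macrophages use both pathways to adjust their membranes during inflammatory activation.

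Each library held 16110654 to 31333973 counts in all and 12307826 to 25742912 in the rows used. Further down the table the identifiers and the KO values were offset by 1 row, and those rows were left out. All 35 genes lay above them. Alpk1 transcripts stood at 25.9 to 32.1 CPM (read counts scaled by library size) in WT PBS and at 19.2 to 22.5 in all KO libraries. The counts do not show which part of the gene was deleted, so this level is no full check of the labels. The number in 1 KO ADP-Hep column fits no sample title, and that library is called the one without a number. Whether replicate libraries derive from different mice is not stated, and p-values may therefore reflect technical spread only. In bulk RNA, fewer cells of a type and less RNA per cell cannot be told apart. Macrophage markers were abundant, with Lyz2 at 18524.1 to 20498.6 and Csf1r at 2281.4 to 2345.5 CPM in WT PBS. The 6 lymphocyte markers summed to at most 0.564 CPM in any library, with Cd3e and Ncr1 at 0 counts in all 12.

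Promoters are shown first because SREBPs act there, usually beside NF-Y at CCAAT boxes and beside Sp1. RefSeq promoters of the GRCm38.p6 build, from 250 bases before to 50 bases after the start, were matched for 28 of the 35 genes. The motifs were searched by their letters on both strands: TCACNCCAC for the sterol regulatory element, CACGTG for the E-box, CCAAT for the NF-Y site and GGGCGG for the Sp1 site. The sterol regulatory element was found in 1 of the 28 genes (3.57%), against 1.44% of 27025 genes with a promoter in the table. CCAAT was found in 23 of 28 (82.1%), against 41.1% of all genes, and GGGCGG in 23 of 28 (82.1%), against 38.2%. The E-box was found in 6 of 28 (21.4%), against 8.09%. CCAAT was present in 18 of the 20 sterol arm genes matched and in 5 of the 8 fatty acid arm genes, and GGGCGG in 19 of 20 and 4 of 8. The 27025 genes were not limited to the 12261 tested here, and a gene counted if any of its promoters held the motif. Per promoter, CCAAT was in 64.9% of 37, against 37.4% of 32851, and GGGCGG in 73.0%, against 35.7%. These are matches of letters, with no test. The promoters of 5 genes named in the following results are printed 5′ to 3′ on the strand of the gene. Whether their motifs bear on the changes in expression was not tested. In each sequence the sterol regulatory element, the E-box and the CCAAT box are in capitals. A CCAAT box on the other strand reads as ATTGG there.
Hmgcs1, chr13:119690101-119690400, plus strand: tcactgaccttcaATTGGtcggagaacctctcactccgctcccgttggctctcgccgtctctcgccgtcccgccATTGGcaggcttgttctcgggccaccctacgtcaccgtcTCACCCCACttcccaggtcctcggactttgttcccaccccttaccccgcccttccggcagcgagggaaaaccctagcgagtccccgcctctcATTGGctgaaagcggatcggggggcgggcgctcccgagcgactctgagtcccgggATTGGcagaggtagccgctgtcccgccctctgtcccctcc
Hsd17b7, chr1:169969156-169969455, minus strand: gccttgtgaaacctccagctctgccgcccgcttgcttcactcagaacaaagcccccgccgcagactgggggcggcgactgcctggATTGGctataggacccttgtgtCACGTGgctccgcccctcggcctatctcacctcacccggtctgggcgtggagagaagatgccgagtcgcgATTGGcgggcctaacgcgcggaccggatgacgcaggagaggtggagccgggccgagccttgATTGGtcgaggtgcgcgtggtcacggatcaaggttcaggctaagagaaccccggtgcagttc
Cyp51, chr5:4104648-4104947, minus strand: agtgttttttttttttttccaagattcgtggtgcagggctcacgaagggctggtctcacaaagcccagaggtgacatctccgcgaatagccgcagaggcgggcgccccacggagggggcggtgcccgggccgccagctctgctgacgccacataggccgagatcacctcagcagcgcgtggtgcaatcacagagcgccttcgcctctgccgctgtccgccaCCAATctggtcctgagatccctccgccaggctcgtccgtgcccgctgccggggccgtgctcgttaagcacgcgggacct
Insig1, chr5:28071162-28071461, plus strand: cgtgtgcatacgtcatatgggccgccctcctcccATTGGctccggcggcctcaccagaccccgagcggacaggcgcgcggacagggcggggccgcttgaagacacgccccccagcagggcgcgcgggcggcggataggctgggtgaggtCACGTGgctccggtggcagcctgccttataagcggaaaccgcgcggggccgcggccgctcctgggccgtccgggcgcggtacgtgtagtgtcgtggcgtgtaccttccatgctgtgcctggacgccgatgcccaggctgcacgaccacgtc
Fasn, chr11:120824498-120824797, minus strand: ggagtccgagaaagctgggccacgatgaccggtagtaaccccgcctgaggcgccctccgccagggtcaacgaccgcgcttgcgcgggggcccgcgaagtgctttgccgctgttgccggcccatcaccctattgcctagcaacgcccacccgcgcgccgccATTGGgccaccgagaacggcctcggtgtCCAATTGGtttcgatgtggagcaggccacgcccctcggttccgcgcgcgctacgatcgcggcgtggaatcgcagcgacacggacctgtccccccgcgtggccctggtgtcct
Hmgcs1 is shown for its sterol regulatory element, which starts 137 bases before the start site, and for its 4 CCAAT boxes. Hsd17b7, which had the largest rise in WT cells among the 34 tested genes, holds 3 CCAAT boxes and an E-box 143 bases before the start. Cyp51, another gene that rose in WT cells, holds 1 CCAAT box. Insig1, which fell most in KO cells, holds 1 CCAAT box and an E-box 101 bases before the start. In Fasn a CCAAT box on each strand overlaps in CCAATTGG.

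KO cells expressed most of these genes above WT cells before any ADP-Hep was added. Under PBS, 24 of the 34 tested genes were higher in KO cells and 0 were lower, in a comparison that called 5.57% of all genes higher and 5.82% lower. Here and throughout, a call is a Benjamini-Hochberg adjusted p under 0.05 in edgeR's quasi-likelihood test over all genes, and ± after a log2 change is its SE. The calls were 17 of 24 in the sterol arm, with a median log2 change of 0.38, and 7 of 10 in the fatty acid arm, with a median of 0.23. The median of all genes was 0.00. Where leaving out 1 library ended or made a call, that library is named by its group and replicate number, with the adjusted p without it. In 26 of the 34 genes all KO PBS libraries lay above all WT PBS libraries, against 13.2% of all genes.

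With ADP-Hep, 5 of the 34 genes rose in WT and fell in KO cells (14.7%, against 3.37% of all genes). Among these 5, Hmgcs1 and Mvd lost the WT call with library totals as the only scaling. Another 4 fell in both (11.8%, against 8.77%). In WT cells only, 9 rose (26.5%, against 21.1%) and 3 fell (8.82%, against 20.1%). In KO cells only, 2 fell (5.88%, against 3.12%). The 11 called in neither (32.4%, against 29.9%) lay close to the background. In WT cells the sterol arm had 11 genes higher and 4 lower and a median of 0.14, and the fatty acid arm had 3 higher and 3 lower and a median of 0.05. That comparison called 31.9% of all genes higher and 31.6% lower, so the fatty acid arm's count lay close to the background. With library totals as the only scaling, the median of all genes moved to -0.12 and these splits became 8 higher and 5 lower, and 1 higher and 4 lower. The arm medians then were 0.03 and -0.06, so that of the fatty acid arm changed sign. The count of 3 fatty acid arm genes called higher also fell to 1 without WT PBS 1 or WT PBS 3. It fell to 2 without WT PBS 2 or any 1 WT ADP-Hep library. Without WT ADP-Hep 2, both Acly and Scd2 lost their calls, and Fads2 gained one. In KO cells the sterol arm had 0 genes higher and 10 lower and a median of -0.15, and the fatty acid arm had 0 higher and 1 lower and a median of -0.06. The background there was 13.7% higher and 15.3% lower, so the fatty acid arm again lay close to it. With library totals alone the KO splits were 1 higher and 8 lower, and 0 higher and 1 lower.

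**Figure D1:**
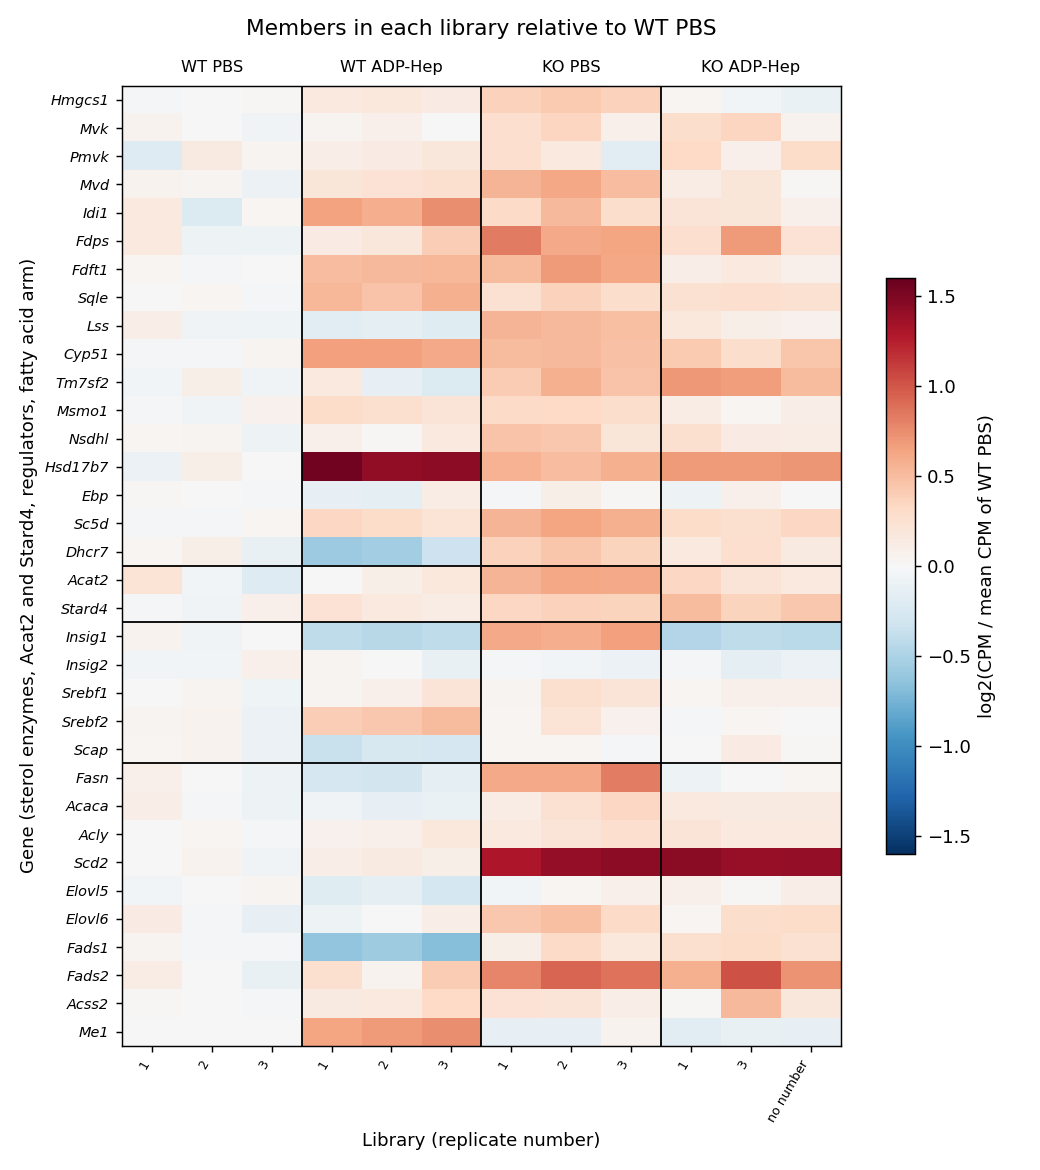
Level of each tested gene (rows) in each of the 12 libraries (columns), as log2 of CPM over the mean CPM of WT PBS, red above and blue below it; lines part the groups and the gene classes. Most rows are red in KO PBS, Hsd17b7 is darkest in WT ADP-Hep, and Scd2 is dark in all 6 KO libraries.

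The responses of the genotypes were compared by the interaction, the WT response minus the KO response. It was called positive in 16 and negative in 2 of the 24 sterol arm genes, with a median of 0.45, and positive in 2 and negative in 2 of the 10 fatty acid arm genes, with a median of 0.15. It was called positive in 24.6% and negative in 24.9% of all genes, with a median of -0.01. With library totals alone the median of all genes moved to -0.16, and the sterol arm had 11 positive and 2 negative calls and a median of 0.30. The fatty acid arm's median was then -0.0049. Without WT PBS 2 or WT ADP-Hep 1 the sterol arm had 1 negative call in place of 2. Neutrophil markers had an interaction in the same direction, with a median of 0.64 over 9 tested and 4 positive and 1 negative calls, and their part in the sterol arm's interaction was not tested. Both responses are measured from each genotype's own PBS level, which was higher in KO cells for 24 genes, and the comparisons share these PBS libraries.

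With ADP-Hep present the sterol arm no longer differed in 1 direction. In KO against WT cells, 6 sterol arm genes were higher and 8 lower, with a median of -0.01, and 6 fatty acid arm genes were higher and 1 lower, with a median of 0.23. Among all genes 32.8% were higher and 32% lower, so the sterol arm's shares lay close to the background. With library totals alone, which moved the median of all genes to 0.17, the sterol arm had 13 higher and 5 lower and a median of 0.15, so its split and its median turned with the scaling. The mean log2 CPM of the 24 sterol arm genes ran from 5.30 to 5.35 in WT PBS, 5.497 to 5.535 in WT ADP-Hep, 5.65 to 5.73 in KO PBS and 5.47 to 5.52 in KO ADP-Hep libraries. Over the 10 fatty acid arm genes it ran from 5.18 to 5.27, 5.22 to 5.29, 5.58 to 5.66 and 5.48 to 5.59. By mean log2 CPM the sterol arm of treated KO cells thus overlapped that of treated WT cells. The fatty acid arm of both KO groups lay above both WT groups. By summed CPM the sterol arm of the treated genotypes did not overlap. Treated WT libraries summed to between 1727 and 1763 CPM, above treated KO libraries at 1567 to 1596 CPM.

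**Figure D2:**
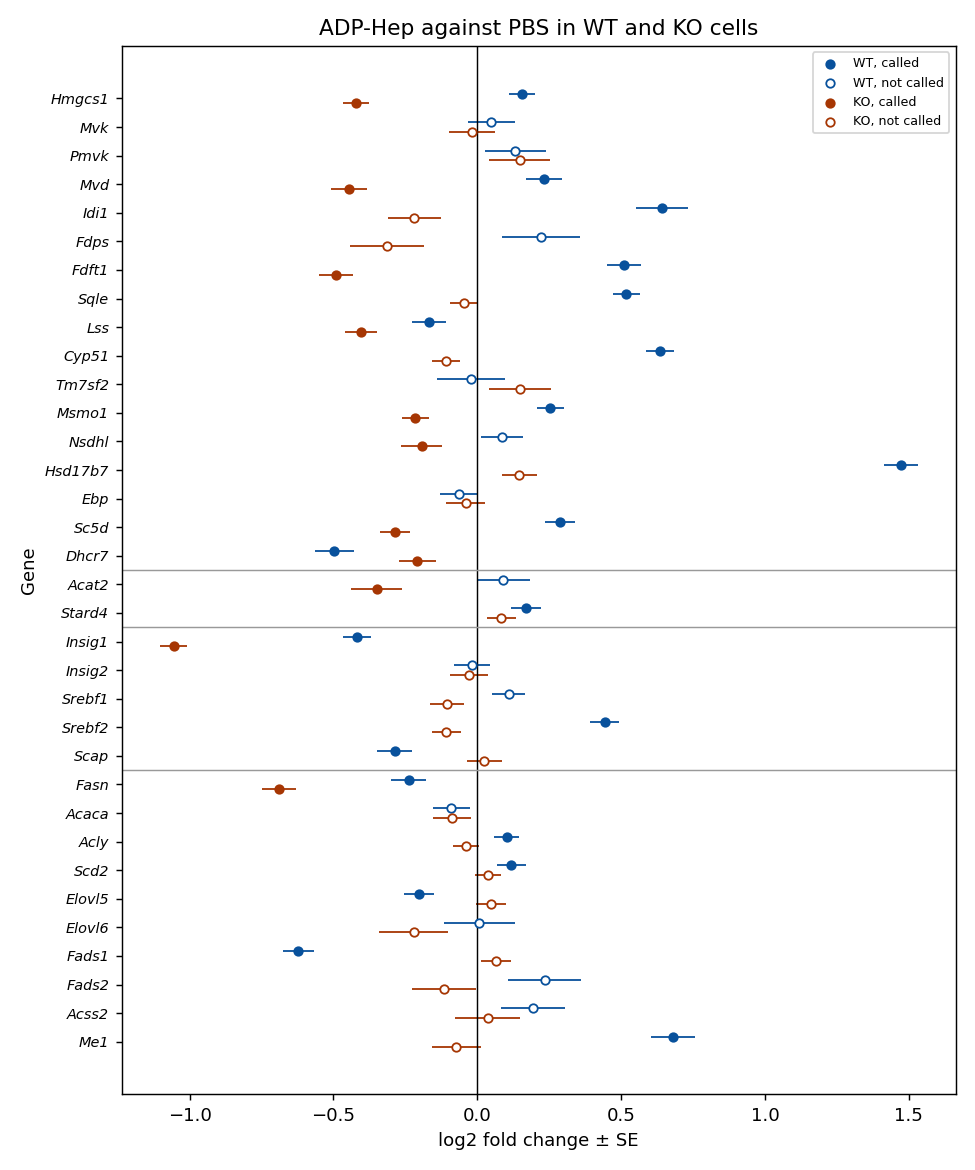
Log2 fold change of ADP-Hep against PBS (x axis, points ± SE) for each tested gene (y axis) in WT (blue) and KO (brown) cells; filled points are called. Called sterol arm genes lie on both sides of 0 in WT cells, and all 11 called genes of KO cells lie below 0.

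Among the regulators, Srebf2 and Insig1 moved and Insig2 did not pass in any comparison. The gene of SREBP-2 is annotated in mm10 at chr15:82147181-82205379, plus strand, and that of INSIG1 at chr5:28071363-28078662, plus strand. Insig1 stood at 91.0, 84.0 and 87.5 CPM in the WT PBS, 66.2, 64.6 and 65.8 in the WT ADP-Hep, 134, 131 and 138 in the KO PBS and 63.0, 65.8 and 64.9 in the KO ADP-Hep libraries. Its KO PBS libraries were the highest and did not overlap any other group, and both ADP-Hep groups overlapped each other at the bottom. ADP-Hep lowered Insig1 in KO cells by 2.08-fold (-1.06 ± 0.05, adjusted p = 2.5e-14) and in WT cells by 1.34-fold (-0.42 ± 0.05, adjusted p = 4e-08). The fall was larger in KO cells by 0.64 ± 0.07 (adjusted p = 2.1e-08), and Insig1 started 1.53-fold higher there (0.61 ± 0.05, adjusted p = 1.5e-09).

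Srebf2 stood at 276, 278 and 251 CPM in the WT PBS, 351, 361 and 381 in the WT ADP-Hep, 275, 311 and 282 in the KO PBS and 266, 275 and 266 in the KO ADP-Hep libraries. Only the WT ADP-Hep libraries stood apart from all other groups, at the top. Srebf2 rose in WT cells (0.44 ± 0.05, adjusted p = 3.3e-08), and its response differed from that of KO cells by 0.55 ± 0.07 (adjusted p = 5.9e-07). Under PBS its level in KO cells did not pass against WT (0.11 ± 0.05, adjusted p = 0.17). Srebf1 gave 0.11 in WT and -0.11 in KO cells, neither called, with an interaction of 0.21 ± 0.08 (adjusted p = 0.033). That interaction was lost without KO ADP-Hep 1 or KO PBS 2 or 3 or WT ADP-Hep 3 or WT PBS 3 (adjusted p = 0.074 to 0.11). Its KO level under PBS missed the threshold (0.17 ± 0.06, adjusted p = 0.058) and passed without KO PBS 1 (adjusted p = 0.021). Scap, the escort, fell in WT cells (-0.29 ± 0.06, adjusted p = 1.9e-04) and gave 0.02 ± 0.06 in KO cells, with an interaction of -0.31 ± 0.09 (adjusted p = 0.0036). Insig2 ranged from -0.07 to -0.02 over the WT response, the KO response and both genotype comparisons. Per kb of exon, WT PBS cells held 37.3 ± 2.07 CPM of Srebf2 against 11.9 ± 0.474 of Srebf1, and 28.3 ± 1.12 of Insig1 against 8.70 ± 0.423 of Insig2 (SD, n = 3).

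The first steps of sterol synthesis build isoprenoid units from acetyl-CoA. Acat2 joins the first acetyl groups, Hmgcs1 makes HMG-CoA, and Mvk, Pmvk and Mvd carry mevalonate to isopentenyl diphosphate, which Idi1 isomerizes and Fdps condenses. Hmgcs1 stood at 153, 156 and 159 CPM in the WT PBS, 174, 176 and 171 in the WT ADP-Hep, 201, 208 and 202 in the KO PBS and 159, 152 and 145 in the KO ADP-Hep libraries. The KO PBS libraries were the highest, followed without overlap by WT ADP-Hep. Hmgcs1 rose slightly in WT cells (0.15 ± 0.04, adjusted p = 0.0039; 0.043 and no call with library totals alone) and fell in KO cells (-0.42 ± 0.04, adjusted p = 7.1e-08). The interaction was 0.58 ± 0.06, adjusted p = 3.1e-08. Mvd stood at 33.7, 33.5 and 30.4 CPM in the WT PBS, 37.2, 38.3 and 38.9 in the WT ADP-Hep, 47.4, 50 and 45.7 in the KO PBS and 35.3, 37.2 and 33.1 in the KO ADP-Hep libraries. Mvd was likewise highest in KO PBS, and the WT ADP-Hep libraries, next in order, touched those of KO ADP-Hep. It rose in WT cells (0.23 ± 0.06, adjusted p = 0.0024; 0.12 and no call with library totals alone) and fell in KO cells (-0.45 ± 0.06, adjusted p = 4.5e-06), which gave an interaction of 0.68 ± 0.09 (adjusted p = 5.4e-07).

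Idi1 stood at 15.4, 11.8 and 14.1 CPM in the WT PBS, 21.5, 20.6 and 23.0 in the WT ADP-Hep, 17, 19.7 and 16.7 in the KO PBS and 15.9, 15.8 and 14.5 in the KO ADP-Hep libraries. Its WT ADP-Hep libraries were above all others. Idi1 rose in WT cells by 1.56-fold (0.64 ± 0.09, adjusted p = 7e-07), and the KO change of -0.22 ± 0.09 was not called (adjusted p = 0.078). The interaction was 0.86 ± 0.13, adjusted p = 4.2e-06. Its higher level in KO PBS (0.37 ± 0.09, adjusted p = 0.01) lost its call without KO PBS 2 or WT PBS 2 (adjusted p = 0.061 to 0.086). Fdps stood at 5.86, 4.98 and 4.97 CPM in the WT PBS, 5.79, 5.97 and 6.91 in the WT ADP-Hep, 9.40, 8.03 and 8.14 in the KO PBS and 6.34, 8.48 and 6.17 in the KO ADP-Hep libraries. The KO PBS libraries lay above both WT groups, and KO ADP-Hep overlapped both KO PBS and WT ADP-Hep. The called difference in level was between KO and WT cells under PBS (0.70 ± 0.13, adjusted p = 8.8e-04). Its interaction of 0.54 ± 0.19 (adjusted p = 0.019) was lost without KO ADP-Hep 1 or the KO ADP-Hep library without a number or KO PBS 1 (adjusted p = 0.059 to 0.061), and its KO fall of -0.31, not called, passed without KO ADP-Hep 3 (adjusted p = 0.012). Acat2 was higher in KO PBS (0.60 ± 0.09, adjusted p = 5.1e-05) and fell in KO cells (-0.35 ± 0.09, adjusted p = 0.004), with an interaction of 0.44 ± 0.13 (adjusted p = 0.0061). Of the kinases, Mvk gave 0.25 ± 0.08 in KO against WT cells under PBS, which was not called but passed without KO PBS 3 (adjusted p = 0.026). With ADP-Hep Mvk was higher in KO cells (0.18 ± 0.08, adjusted p = 0.049), a call lost without KO ADP-Hep 1 or 3 or WT ADP-Hep 1 or 2 or 3 (adjusted p = 0.07 to 0.18). It was lost in 11 of 16 other settings, left-out libraries included, with DESeq2's Wald test and limma-voom among the 11. Pmvk was called in no comparison and lay between -0.01 and 0.15. The counts of Acat2, Fdps and Idi1 are uncertain, because 39.1%, 26.2% and 17.7% of the 50-base stretches of their exons occur in other genes, chiefly Acat3, Gm43738 and Gm13502.

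The next enzymes, Fdft1, Sqle and Lss, make squalene and close it into lanosterol, and they did not respond alike. Fdft1 stood at 30.5, 29.4 and 29.7 CPM in the WT PBS, 41.9, 42.7 and 43.3 in the WT ADP-Hep, 42.4, 47.8 and 45.8 in the KO PBS and 32.1, 33.2 and 31.7 in the KO ADP-Hep libraries. Fdft1 was high in WT ADP-Hep and KO PBS and low in the other groups, and the WT ADP-Hep and KO PBS libraries overlapped. It rose by 1.42-fold in WT cells (0.51 ± 0.06, adjusted p = 3.2e-08) and fell by nearly the same amount in KO cells (-0.49 ± 0.06, adjusted p = 4.6e-07). Its interaction of 1.00 ± 0.08 (adjusted p = 2e-10) was the second in size among the 34 genes. Of the 50-base stretches of Fdft1, 9.38% occur in another gene, Gm6781. Sqle stood at 107, 109 and 105 CPM in the WT PBS, 154, 146 and 159 in the WT ADP-Hep, 126, 138 and 129.7 in the KO PBS and 126, 129 and 127 in the KO ADP-Hep libraries. WT ADP-Hep was highest, WT PBS lowest, and the KO groups lay between and overlapped. Sqle, which epoxidizes squalene, rose in WT cells (0.52 ± 0.05, adjusted p = 5.5e-10) and gave -0.05 ± 0.05 in KO cells, with an interaction of 0.56 ± 0.07 (adjusted p = 1.3e-07). Lss fell in both genotypes, in WT (-0.17 ± 0.06, adjusted p = 0.015) and in KO cells (-0.40 ± 0.06, adjusted p = 5.3e-06). The WT fall of Lss lost its call without WT PBS 1 (adjusted p = 0.13). Its interaction (0.24 ± 0.08, adjusted p = 0.019) was lost without the KO ADP-Hep library without a number or WT PBS 3 (adjusted p = 0.052 to 0.056).

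**Figure D3:**
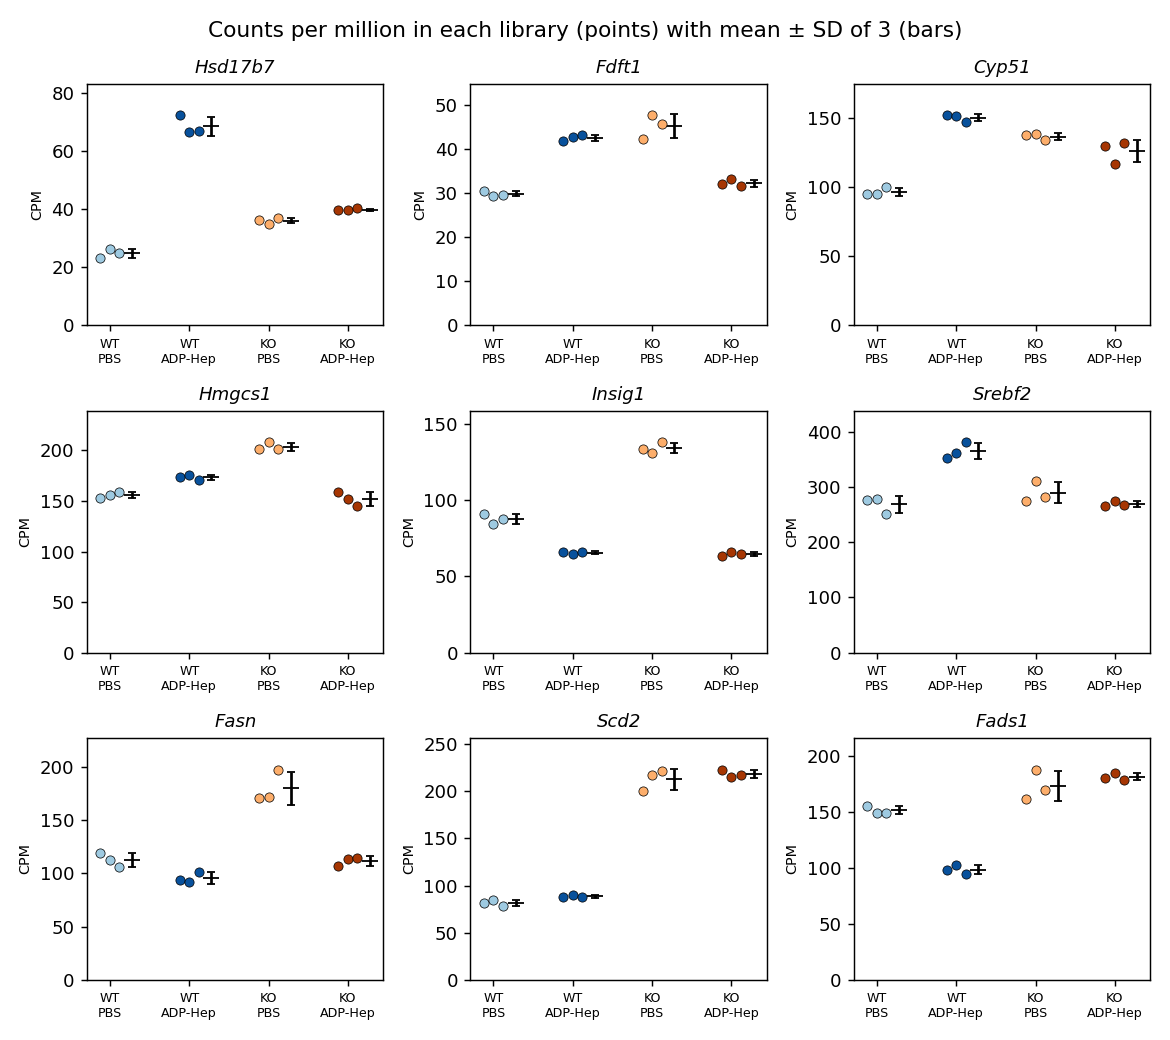
CPM (y axes, from 0) of 9 genes in each library of the 4 groups (x axes), with points for libraries and a dash with whiskers for the mean ± SD of 3. Hsd17b7 reaches 66.5 to 72.3 CPM in WT ADP-Hep alone, Fdft1 is high in WT ADP-Hep and KO PBS, and Scd2 lies between 200.4 and 223 CPM in the KO libraries.

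From lanosterol to cholesterol, 8 of the enzymes were followed: the demethylase Cyp51, the reductase Tm7sf2, the oxidase Msmo1, the dehydrogenases Nsdhl and Hsd17b7, the isomerase Ebp, the desaturase Sc5d and the final reductase Dhcr7. Hsd17b7 is annotated at chr1:169949535-169969241, minus strand. Hsd17b7 stood at 23.2, 26.3 and 24.8 CPM in the WT PBS, 72.3, 66.5 and 66.8 in the WT ADP-Hep, 36.3, 35.0 and 36.8 in the KO PBS and 39.6, 39.6 and 40.3 in the KO ADP-Hep libraries. All 4 groups were apart, in the order WT PBS, KO PBS, KO ADP-Hep and WT ADP-Hep. Hsd17b7 rose 2.77-fold in WT cells (1.47 ± 0.06, adjusted p = 3.6e-17), more than any other of the 34 genes. In KO cells its change was 0.15 ± 0.06 (adjusted p = 0.073), which became a call at 0.19 with library totals alone, and the interaction was 1.33 ± 0.09, adjusted p = 1.6e-12.

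Cyp51 stood at 94.9, 95.6 and 100.0 CPM in the WT PBS, 152, 152 and 147 in the WT ADP-Hep, 138, 138 and 134 in the KO PBS and 129.9, 117 and 132 in the KO ADP-Hep libraries. WT PBS was lowest and WT ADP-Hep highest, each without overlap with any other group. Cyp51 rose 1.55-fold in WT cells (0.64 ± 0.05, adjusted p = 2.1e-11) and gave -0.11 ± 0.05 in KO cells, not called, with an interaction of 0.75 ± 0.07 (adjusted p = 1.7e-09). Sc5d stood at 49.4, 49.6 and 51.2 CPM in the WT PBS, 63.2, 61.4 and 58.4 in the WT ADP-Hep, 72.7, 77.8 and 74.5 in the KO PBS and 61.6, 60 and 62.8 in the KO ADP-Hep libraries. Sc5d was lowest in WT PBS and highest in KO PBS. It rose in WT (0.29 ± 0.05, adjusted p = 3.1e-05) and fell in KO cells (-0.29 ± 0.05, adjusted p = 1.2e-04), and after ADP-Hep the difference between genotypes was 0.01 ± 0.05, with a 95% interval of -0.10 to 0.11. Msmo1 also rose in WT (0.25 ± 0.05, adjusted p = 4.4e-05) and fell in KO cells (-0.21 ± 0.05, adjusted p = 0.0011). A rise in WT cells with a fall in KO cells was called in 5 of the 34 genes, Hmgcs1, Mvd, Fdft1, Msmo1 and Sc5d, and in 3.37% of all genes. The WT calls of Hmgcs1 and Mvd were lost with library totals alone. No gene of the fatty acid arm was among the 5, which for 10 tested genes lay close to the background.

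Dhcr7 stood at 50.2, 52.4 and 45.2 CPM in the WT PBS, 33.0, 33.4 and 39.0 in the WT ADP-Hep, 63.5, 67.2 and 63.3 in the KO PBS and 54.9, 59.5 and 54.3 in the KO ADP-Hep libraries. Dhcr7, which makes cholesterol from its last precursor, was lowest of all in the WT ADP-Hep libraries, where 9 of the 17 sterol enzymes rose. It fell there by 1.41-fold (-0.50 ± 0.07, adjusted p = 6.1e-07) and less in KO cells (-0.21 ± 0.06, adjusted p = 0.016), and the latter call was lost without KO ADP-Hep 1 or the KO ADP-Hep library without a number or KO PBS 2 (adjusted p = 0.07 to 0.079). The interaction (-0.29 ± 0.09, adjusted p = 0.013) was lost without WT ADP-Hep 1 or WT PBS 2 (adjusted p = 0.051 to 0.053). Tm7sf2 was higher in KO cells with PBS (0.49 ± 0.12, adjusted p = 0.0069) and with ADP-Hep (0.66 ± 0.11, adjusted p = 1e-05), and neither response was called. Of its 50-base stretches, 9.87% occur elsewhere, mainly in Vps51. Nsdhl was higher in KO PBS (0.38 ± 0.07, adjusted p = 9.7e-04). Its KO fall (-0.19 ± 0.07, adjusted p = 0.045) was lost without KO ADP-Hep 3 or the KO ADP-Hep library without a number or KO PBS 1 or 2 (adjusted p = 0.1 to 0.19), a call lost in 11 of 16 other settings, left-out libraries included, with DESeq2's Wald test and limma-voom among the 11. Its interaction (0.28 ± 0.10, adjusted p = 0.026) was lost without KO ADP-Hep 3 or the KO ADP-Hep library without a number or KO PBS 1 or 2 or WT ADP-Hep 3 or WT PBS 3 (adjusted p = 0.051 to 0.08). Ebp was called in no comparison, with values from -0.06 to 0.06, and its WT response passed without WT ADP-Hep 3 (adjusted p = 0.049). Stard4, a carrier of cholesterol between membranes, was higher in KO cells with PBS (0.35 ± 0.05, adjusted p = 4.5e-05) and with ADP-Hep (0.26 ± 0.05, adjusted p = 8.1e-05). It rose in WT cells (0.17 ± 0.05, adjusted p = 0.0059), but gave 0.06 and no call with library totals alone.

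**Figure D4:**
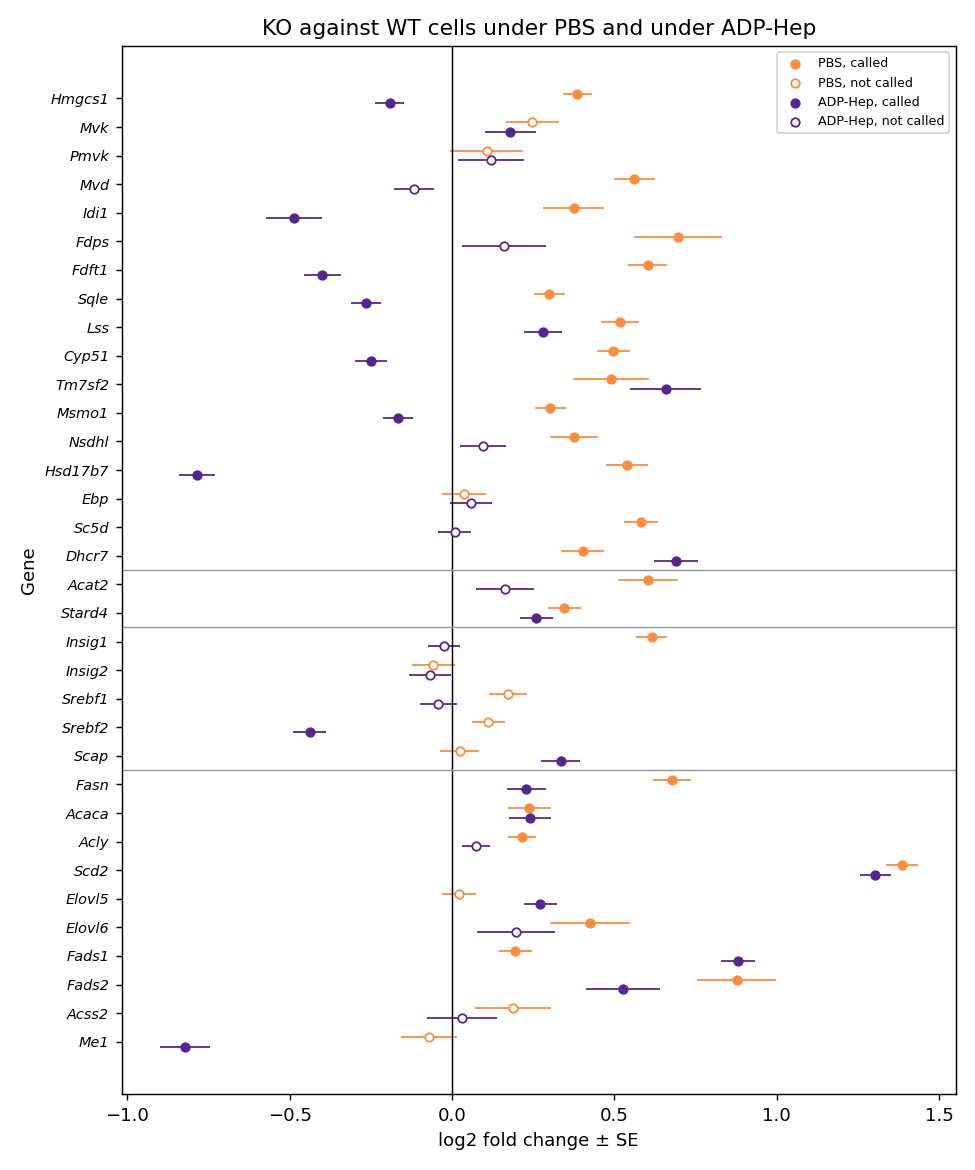
Log2 fold change of KO against WT cells (x axis, points ± SE) for each tested gene (y axis) under PBS (orange) and under ADP-Hep (purple); filled points are called. All 24 called genes under PBS lie above 0, and those under ADP-Hep lie on both sides, with Scd2 at 1.38 and 1.30.

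In the fatty acid arm the genotype gave the largest differences. Scd2, a desaturase that makes monounsaturated fatty acids, is annotated at chr19:44293674-44306864, plus strand. Scd2 stood at 81.3, 85.2 and 78.7 CPM in the WT PBS, 88.2, 89.9 and 87.4 in the WT ADP-Hep, 200.4, 217 and 221 in the KO PBS and 223, 215 and 217 in the KO ADP-Hep libraries. Every KO library was above every WT library, and within KO cells the treatments overlapped. KO cells held 2.61-fold more with PBS (1.38 ± 0.05, adjusted p = 2.4e-16) and 2.47-fold more with ADP-Hep (1.30 ± 0.05, adjusted p = 6e-18). The change of Scd2 in WT cells (0.12 ± 0.05, adjusted p = 0.042) was lost without WT ADP-Hep 1 or 2 or WT PBS 1 or 3 (adjusted p = 0.071 to 0.14), and with library totals alone it was 0.0073. Its paralog Scd1 was low, with 3, 18, 17 and 26 counts summed over the WT PBS, WT ADP-Hep, KO PBS and KO ADP-Hep libraries. Only 3.97% of the 50-base stretches of Scd2 occur in another gene. Fads2 stood at 7.29, 6.69 and 6.20 CPM in the WT PBS, 8.03, 7.00 and 8.89 in the WT ADP-Hep, 11.6, 12.9 and 12.2 in the KO PBS and 9.96, 13.6 and 11.1 in the KO ADP-Hep libraries. KO libraries were again above WT libraries with no overlap. Fads2, the first desaturase of polyunsaturated fatty acid synthesis, was higher in KO cells with PBS (0.88 ± 0.12, adjusted p = 1.7e-05) and with ADP-Hep (0.53 ± 0.11, adjusted p = 2.8e-04). Its response to ADP-Hep was not called in WT cells (0.23 ± 0.13) but passed without WT ADP-Hep 2 (adjusted p = 0.045), and its interaction of 0.35 passed without KO ADP-Hep 3 or WT ADP-Hep 2 (adjusted p = 0.021 to 0.043).

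Fads1 stood at 156, 149 and 149 CPM in the WT PBS, 98.0, 102 and 94.2 in the WT ADP-Hep, 162, 188 and 170.0 in the KO PBS and 180.5, 185 and 179 in the KO ADP-Hep libraries. The WT ADP-Hep libraries were the lowest, below every other group. Fads1, which acts after Fads2, fell 1.54-fold in WT cells (-0.62 ± 0.05, adjusted p = 1.3e-10) and gave 0.06 ± 0.05 in KO cells, with an interaction of -0.69 ± 0.07 (adjusted p = 2.1e-08). The KO level under PBS (0.20 ± 0.05, adjusted p = 0.014) lost its call without KO PBS 2 (adjusted p = 0.11). Elovl5, an elongase of the same route, fell in WT cells too (-0.20 ± 0.05, adjusted p = 0.0014; interaction -0.25 ± 0.07, adjusted p = 0.0062). Elovl6, an elongase of saturated chains, was higher in KO PBS (0.42 ± 0.12, adjusted p = 0.025), a call lost without KO PBS 1 or 2 or WT PBS 2 or 3 (adjusted p = 0.059 to 0.14) and with DESeq2's Wald test. Per kb of exon, WT PBS cells held 31.5 ± 0.772 CPM of Fads1 and 2.04 ± 0.166 of Fads2 (SD, n = 3).

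Fasn stood at 119, 112 and 106 CPM in the WT PBS, 93.4, 91.5 and 102 in the WT ADP-Hep, 171, 172 and 198 in the KO PBS and 107, 113 and 115 in the KO ADP-Hep libraries. Fasn, the synthase that assembles palmitate, was highest in KO PBS and lowest in WT ADP-Hep, and KO ADP-Hep overlapped WT PBS. It fell 1.61-fold in KO cells (-0.69 ± 0.06, adjusted p = 2.2e-09) and less in WT cells (-0.24 ± 0.06, adjusted p = 0.0012), and the difference between these falls was 0.45 ± 0.08 (adjusted p = 8.7e-05). It was the 1 gene of this arm called in KO cells. Acaca, the carboxylase that feeds Fasn, was higher in KO cells with PBS (0.24 ± 0.07, adjusted p = 0.019), a call lost without KO PBS 2 or 3 or WT PBS 2 or 3 (adjusted p = 0.053 to 0.11), and with ADP-Hep (0.24 ± 0.06, adjusted p = 0.0021). Of the stretches of Acaca, 30.4% occur in other genes, so its counts are uncertain. Without KO PBS library 2 the count of fatty acid arm genes higher in KO PBS fell from 7 to 4, through Acaca, Elovl6 and Fads1.

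The enzymes that supply acetyl-CoA and NADPH formed the last group. Me1 stood at 13.2, 13.3 and 13.2 CPM in the WT PBS, 20.5, 21.3 and 22.1 in the WT ADP-Hep, 12.1, 12.1 and 13.8 in the KO PBS and 11.8, 12.2 and 12 in the KO ADP-Hep libraries. Me1, the cytosolic malic enzyme, was high in WT ADP-Hep alone. The KO PBS libraries overlapped both WT PBS and KO ADP-Hep. It rose 1.6-fold in WT cells (0.68 ± 0.08, adjusted p = 2.3e-08) and gave -0.07 ± 0.09 in KO cells, with an interaction of 0.75 ± 0.12 (adjusted p = 6e-06). Its counts are uncertain, since 22.9% of its stretches occur elsewhere, mainly in Gm7049. Acly, the ATP citrate lyase, was higher in KO PBS (0.21 ± 0.04, adjusted p = 0.0016). Its small WT rise (0.10 ± 0.04, adjusted p = 0.045) was lost without WT ADP-Hep 2 or 3 or WT PBS 1 or 2 or 3 (adjusted p = 0.053 to 0.19), and its sign turned with library totals alone (-0.01). Its interaction of 0.14, not called, passed without KO PBS 1 or WT ADP-Hep 1 (adjusted p = 0.039 to 0.046), and its KO level with ADP-Hep (0.07) without WT ADP-Hep 3 (adjusted p = 0.045). Acss2, which makes acetyl-CoA from acetate, was called in no comparison, with values from 0.03 to 0.19.

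Under ADP-Hep the remaining calls between genotypes were these. Fads1 (0.88 ± 0.05), Dhcr7 (0.69 ± 0.07), Scap (0.34 ± 0.06), Lss (0.28 ± 0.06), Elovl5 (0.27 ± 0.05) and Fasn (0.23 ± 0.06) were higher in KO cells. Me1 (-0.82 ± 0.08), Hsd17b7 (-0.79 ± 0.06), Idi1 (-0.49 ± 0.09), Srebf2 (-0.44 ± 0.05), Fdft1 (-0.40 ± 0.06), Sqle (-0.27 ± 0.05), Cyp51 (-0.25 ± 0.05), Hmgcs1 (-0.19 ± 0.04) and Msmo1 (-0.17 ± 0.05) were lower. The calls of Cyp51, Hmgcs1 and Msmo1 were lost with library totals alone. Compared with untreated WT cells, without a test, 15 of the 34 genes had all KO ADP-Hep libraries above all WT PBS libraries, 2 had them below and 17 overlapped, against 21.3% above and 21.8% below among all genes. The 2 below were Insig1 and Me1. Of the 24 genes higher in KO PBS, 15 stayed above WT PBS after ADP-Hep, 8 overlapped it and 1, Insig1, lay below. The same count was not made over all genes higher in KO PBS, so these numbers have no background.

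Genes around the pathway were counted from lists of the same kind. Of 17 tested genes of other lipid synthesis, 4 were higher and 5 lower in the WT response, 2 and 8 in the KO response, and 6 and 0 in KO against WT cells with PBS. As shares these were 23.5% and 29.4%, 11.8% and 47.1%, and 35.3% and 0%, against 31.9% and 31.6%, 13.7% and 15.3%, and 5.57% and 5.82% of all genes. The WT shares were thus not above the background. Lpin1, a phosphatidate phosphatase, fell in WT cells (-2.53 ± 0.10, adjusted p = 9e-18) and less in KO cells (-0.56 ± 0.08, adjusted p = 3.4e-06; interaction -1.97 ± 0.12, adjusted p = 1.1e-12). Mid1ip1, an activator of acetyl-CoA carboxylase, fell in WT (-0.55 ± 0.06, adjusted p = 3.9e-08) and in KO cells (-0.48 ± 0.06, adjusted p = 2e-06). Aacs, which makes acetoacetyl-CoA for lipid synthesis, was higher in KO PBS (0.52 ± 0.06, adjusted p = 3e-06) and fell in KO cells (-0.45 ± 0.06, adjusted p = 6.2e-06). Acsl3, a fatty acid activating enzyme, was higher in KO PBS (0.53 ± 0.08, adjusted p = 6.5e-05). With ADP-Hep, 6 of the 17 were higher and 4 lower in KO cells (35.3% and 23.5%, against 32.8% and 32% of all genes). The interaction was positive in 6 and negative in 3 (35.3% and 17.6%, against 24.6% and 24.9%).

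Of 9 genes that process or degrade the pathway's proteins, 4 were higher and 2 lower in the WT response, 3 and 1 in the KO response, and 0 and 1 in KO against WT cells with PBS. As shares these were 44.4% and 22.2%, 33.3% and 11.1%, and 0% and 11.1%, against the same 31.9% and 31.6%, 13.7% and 15.3%, and 5.57% and 5.82% of all genes. The ubiquitin-conjugating enzyme Ube2g2 rose in WT cells (0.55 ± 0.06, adjusted p = 4e-08). The site proteases that release SREBPs, Mbtps1 (-0.21 ± 0.05, adjusted p = 0.0014) and Mbtps2 (-0.35 ± 0.05, adjusted p = 4.9e-06), fell there. With ADP-Hep, 1 of the 9 was higher and 4 lower in KO cells (11.1% and 44.4%, against 32.8% and 32% of all genes). The interaction was positive in 3 and negative in 0 (33.3% and 0%, against 24.6% and 24.9%).

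Of 12 genes that sense, store or export sterols, 4 were higher and 6 lower in the WT response, 1 and 6 in the KO response, and 5 and 0 in KO against WT cells with PBS. The shares higher were 33.3%, 8.33% and 41.7%, against 31.9%, 13.7% and 5.57% of all genes, and the shares lower were 50%, 50% and 0%, against 31.6%, 15.3% and 5.82%. Nr1h3, which encodes the oxysterol receptor LXR alpha, rose in WT cells (2.61 ± 0.08, adjusted p = 2.5e-19), as did the cholesterol exporter Abca1 (1.48 ± 0.05, adjusted p = 1.7e-18). Ch25h, the enzyme that makes an oxysterol, rose from 0.142 to 0.326 CPM in WT PBS to 4.44 to 6.02 in WT ADP-Hep. The exporter Abcg1 fell (-1.30 ± 0.08, adjusted p = 3.3e-12), as did Soat1, which esterifies cholesterol (-1.07 ± 0.04, adjusted p = 2.6e-17), and Cyp27a1, another oxysterol enzyme (-2.01 ± 0.12, adjusted p = 1.3e-13). In KO cells Npc1, which exports cholesterol from lysosomes (-0.51 ± 0.04, adjusted p = 2.6e-09), Soat1 (-0.42 ± 0.04, adjusted p = 3e-08) and Mylip, which degrades lipoprotein receptors (-0.45 ± 0.06, adjusted p = 9.2e-07), fell and Abca1 rose (0.36 ± 0.05, adjusted p = 5.1e-06). Under PBS, Mylip (0.60 ± 0.06, adjusted p = 3.8e-08) and Abcg1 (0.61 ± 0.07, adjusted p = 4.4e-06) were higher in KO cells. With ADP-Hep, 6 of the 12 were higher and 4 lower in KO cells (50% and 33.3%, against 32.8% and 32% of all genes). The interaction was positive in 4 and negative in 4 (33.3% each, against 24.6% and 24.9%).

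Markers of other cells moved as well. Of 9 tested neutrophil markers, 0 rose and 5 fell in KO cells, against 13.7% and 15.3% of all genes, among them Ngp (-0.61 ± 0.08, adjusted p = 1.1e-06) and Ltf (-0.65 ± 0.08, adjusted p = 1.6e-06). The 11 listed neutrophil markers summed to 342 to 368 CPM in KO PBS and 269 to 279 in KO ADP-Hep, against 322 to 356 in WT PBS and 299.9 to 319 in WT ADP-Hep. In WT cells 3 of the 9 rose and 2 fell, against 31.9% and 31.6% of all genes. In KO against WT cells 2 were higher and 2 lower with PBS, against 5.57% and 5.82%, and 1 was higher and 7 lower with ADP-Hep, against 32.8% and 32%. Their part in the differences of the sterol genes was not tested. Of 8 macrophage markers, 4 rose and 2 fell in WT cells, 1 rose and 1 fell in KO cells, and 3 were higher and 0 lower in KO PBS, against the same shares of all genes. The 5 fibroblast markers summed to at most 2.28 CPM in any library, and the 6 dendritic cell markers to at most 2.10.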

How the data were processed

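RNA of 12 libraries was sequenced after a stranded mRNA preparation, per the labels' protocols. The authors deposited raw counts of reads for each gene as whole numbers. The submitters' processing notes name STAR, RSEM, featureCounts and DESeq2, with FastQC and Trim Galore, and the builds mm10 and hg38. Which of them made the counts, and with what annotation and strandedness, is not given in the sources used here. Overlapping or near-identical genes may share reads.

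Columns were assigned by name. Mean log counts of WT and KO libraries correlated at 0.996 in the 37542 rows used. Below the break they correlated at 0.0420, or 0.979 after moving the KO columns by 1 row, so 19207 of 56749 rows, with a margin of 100, were left out. The 37542 rows held 71.3 to 85.2% of a library's counts, and CPM are taken over them.

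In R 4.3.3 with edgeR 4.0.16, TMM scaling, filterByExpr and 1 robust quasi-likelihood fit of 4 group means gave 5 comparisons. P-values were Benjamini-Hochberg adjusted over 12261 genes. The biological coefficient of variation was 4.81%. SEs were derived from the F statistic. Replicates differed by a chi-square per degree of freedom of 1.96 to 10.5, so none was counted as a repeat. Coordinates and shared 50-base stretches come from GENCODE release M21 of mm10, and promoters from RefSeq.

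The genes, lists and tests were chosen with earlier results of these data known. Values per library are given for genes called with an absolute log2 change of at least 0.5 in either response or the interaction. Dhcr7, just short of this at -0.497 in the WT response, is also given. Scd2 and Fads2 were added after their values were seen. From other lists up to 4 called genes were named, and a few genes of those lists are not reported here. Alternatives were DESeq2 1.42.0 and its size factors, library totals, limma-voom (limma 3.58.1), other filters, fits of only the groups compared, a replicate block, other treatments of the rows left out, and leaving out each library.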

Additional observations from a re-analysis of the deposited data

Results flagged for a closer look

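The response to ADP-Hep differed between the genotypes, by the interaction term of edgeR's quasi-likelihood fit, in 22 of the 34 tested genes. The calls were positive in 18 (52.9%) and negative in 4 (11.8%), against 24.6% and 24.9% of all genes. In the fatty acid arm, 2 of 10 were positive and 2 negative (20% each), which was not above those shares. Single left-out libraries ended the calls of Srebf1, Nsdhl, Lss, Fdps and Dhcr7. Values are the WT response minus the KO response on the log2 scale. In sterol enzymes it was 1.33 for Hsd17b7, 1.00 for Fdft1, 0.86 for Idi1, 0.75 for Cyp51, 0.68 for Mvd, 0.58 for Hmgcs1, 0.58 for Sc5d, 0.56 for Sqle, 0.54 for Fdps, 0.47 for Msmo1, 0.28 for Nsdhl and 0.24 for Lss, and it was -0.29 for Dhcr7. Acat2 gave 0.44. Among the regulators, Insig1 gave 0.64, Srebf2 0.55, Srebf1 0.21 and Scap -0.31. In the fatty acid arm, Me1 gave 0.75, Fasn 0.45, Elovl5 -0.25 and Fads1 -0.69. Where the value is positive, the paths differ: Hsd17b7 rose in WT cells without a call in KO cells, Fdft1 rose in WT and fell in KO cells, and Insig1 fell in both and more in KO cells.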

How the results depend on the processing

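The sum of higher and lower calls per arm and comparison stayed within 1.5 times its main value under all settings run, except that 4 fatty acid arm genes in place of 7 were called in KO against WT cells with PBS without KO PBS replicate 2 (range 4 to 7 when each library was left out). Counts by direction moved more. The 3 fatty acid arm genes higher in the WT response became 1 with library totals, with a replicate block, in a fit of only the groups compared, and without WT PBS replicate 1 or 3. The 6 sterol arm genes higher and 8 lower in KO against WT cells with ADP-Hep became 13 and 5 with library totals. Of 2890 gene values compared under other settings, 2766 kept their side of the threshold, 93 lost a call, 29 gained one and 2 reversed. A reversal means a change of sign with a call in either fit. Values called in neither fit count as kept, even where their sign changed. Both reversals came with library totals as the only scaling: Acly in the WT response gave -0.010 and lost its call, and Insig1 in KO against WT cells with ADP-Hep gave 0.13. Library totals also ended the interaction calls of Acat2, Fdps, Lss, Nsdhl and Srebf1.

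No pairing by replicate number was seen: 4 of 15 same-number pairs and 9 of 39 other pairs had deviations correlated above 0.1. Of 11 numbered libraries, 2 correlated best with one of their own number. With 3 libraries per group, these correlations cannot exclude a pairing. A replicate block, which leaves out the library without a number, kept 161 gene values and ended 9 calls. These were Acly (0.10, adjusted p = 0.069) and Scd2 (0.12, adjusted p = 0.065) in the WT response, Acat2 (-0.31, adjusted p = 0.051), Nsdhl (-0.16, adjusted p = 0.2) and Dhcr7 (-0.17, adjusted p = 0.16) in the KO response, and Srebf1, Nsdhl, Lss and Fdps in the interaction. With the block, 15 sterol arm and 4 fatty acid arm genes were called in the WT response, 7 and 1 in the KO response, and 14 and 4 in the interaction. Of all 12369 genes in that fit, 3847 were called higher and 3850 lower in the WT response. The KO response had 1169 and 1414, and the interaction 2782 and 2777. As a share, the sterol arm's 15 of 24 in the WT response lay close to that of all genes. Depth limited Scd1, at 3 to 26 counts per group.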
